A study of Mus musculus with 6 samples.

Results

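Th9 cells recovered from tumour-bearing mice were compared with Th1 and Th17 cells recovered in the same way, and the comparison asks which genes set Th9 cells apart from both of those kinds at once. A gene was counted as non-overlapping when both Th9 arrays lay above, or both below, all 4 arrays of the other kinds after normalization. Of 12093 genes tested, 1740 (14.4%) lay above and 1408 (11.6%) lay below by that count. A stricter call was made with limma, which required the difference from Th1 and the difference from Th17 each to pass a Benjamini-Hochberg adjusted p of 0.05 in the same direction. By that call 451 genes (3.73%) were higher in Th9 cells than in both other kinds and 303 (2.51%) were lower, and these genes are described below by function.

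The study put RNA from 3 kinds of mouse CD4 T helper cell on Illumina bead arrays, with 2 arrays for each of Th9, Th1 and Th17 cells and 6 in all. All 3 kinds carried CD45.1, the surface marker of the transferred cells, and were sorted on it together with CD4 from spleens on day 12 after transfer. The labels give the C57BL/6 background strain for every array and name each group as Th9 cells, Th1 cells or Th17 cells, with no other allele or agent. The second array of a kind is labelled only as a repeat, so p-values measure a spread between arrays that may be purely technical, and the number of arrays limits the precision.

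Th9 cells are a CD4 subset defined by the secretion of interleukin 9. They form when naive CD4 cells meet interleukin 4 together with transforming growth factor beta, and the transcription factors Irf4, Gata3, Batf and PU.1 act on the Il9 gene. Th1 cells are defined by interferon gamma and T-bet, and Th17 cells by interleukin 17. In mice, transferred Th9 cells have been studied for their activity against tumours.

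The labels were first set against the defining genes of each subset. The Il9 probe was not above background on any of the 6 arrays, where the thresholds were 5.84 to 6.95. It read 4.1 and 3 on the Th9 arrays, 1.8 and 0.1 for Th1 and 0.1 and 0.4 for Th17, so the name of the Th9 group was not borne by its own cytokine. Tbx21, which encodes T-bet, lay at 56.2 and 54.2 in Th1, at 9.1 and 1.5 in Th9 and at 2.1 and -5.4 in Th17, so it was highest on the Th1 arrays. Il17a lay at -0.3 and 8.6 in Th17 and at 7.8 and 3.4 in Th9, close to background in both. All 10 T cell identity genes present on the array, such as Cd3e and Thy1, were above background on all 6 arrays. Between 41.0 and 45.2% of 45281 probes exceeded background per array. Across the 12093 genes tested, the normalized log2 levels of arrays of a kind correlated with r of 0.9926 to 0.9949. In sorted bulk cells, fewer cells that express a gene and less RNA per cell cannot be told apart.

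Throughout, a level is an intensity as deposited, on a linear scale, and a difference is a log2 fold change after normexp correction with 50 added to every value, so the change of dim genes is understated. Standard errors of the named genes were 0.11 to 0.15 (n = 2 arrays per kind), and the adjusted p given for a gene is the larger of its 2 limma comparisons. Where 3 pairs of levels follow a gene without names, they are those of the Th9, Th1 and Th17 arrays in that order. The gap of a gene is the distance on the normalized log2 scale between the lowest Th9 array and the highest other array, or the reverse for a gene lower in Th9. An exact permutation test of 2 arrays against 4 cannot go below a two-sided p of 0.133, so no such test was made for single genes.

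Of the 451 genes called higher, 450 also had non-overlapping arrays, as did all 303 called lower. The exception was Acsm3, named after its values were seen, whose normalized log2 levels were 7.26 and 7.78 in Th9 but reached 7.29 on a Th1 array. The median gap was 0.40 among the 450 and -0.37 among the 303. Of the 450, 26 were above background in neither other kind and so passed the filter only through their Th9 arrays. Of the 303, 2 were not above background in Th9. A gap of more than 1 log2 unit was found for 47 genes above and 21 below, whereas 69 and 56 had a gap under 0.25. A further 1290 genes above and 1105 below had non-overlapping arrays without passing both comparisons. Among genes above, Th1 was the nearer kind for 290 and Th17 for 160. Among genes below, Th1 was nearer for 191 and Th17 for 112.

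The same call made for the other kinds found 221 genes higher and 163 lower in Th1 than in both others, and 568 higher and 512 lower in Th17. Against the mean of Th1 and Th17, 978 genes (8.09%) were higher in Th9 and 861 (7.12%) lower, but 527 and 558 of these were not apart from each kind separately. The number lower depended on the scaling. With arrays scaled to their median in place of quantile normalization, 458 genes were apart above and 102 below, while the median of all genes against Th1 moved from 0.01 to 0.14. On the deposited intensities themselves, 446 of the 450 genes above but 209 of the 303 below had non-overlapping arrays. The plot of both comparisons shows the called genes in its upper right and lower left.

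**Figure D1:**
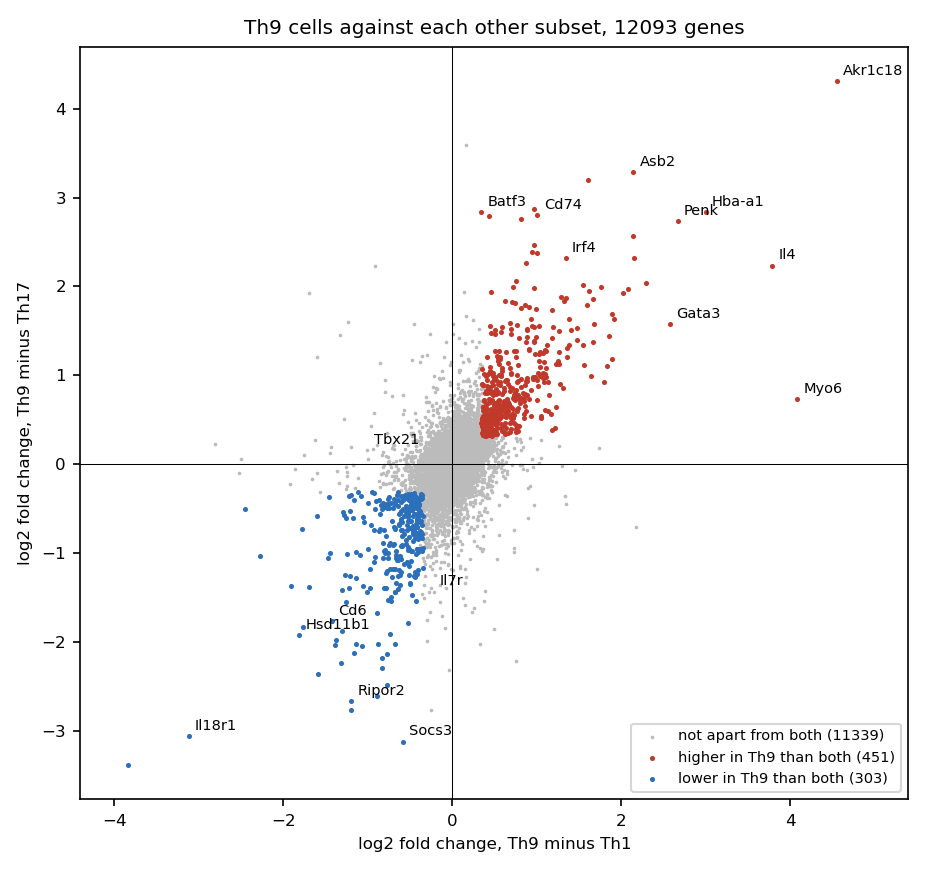
Log2 fold change of Th9 over Th1 (horizontal axis) and of Th9 over Th17 (vertical axis), with 1 point for each of 12093 genes and the genes apart from both kinds in colour. The 451 higher genes reach 4.55 and 4.31 at Akr1c18, and the 303 lower genes include Il18r1 at -3.12 and -3.06. Both axes share the Th9 arrays, so the slope of the cloud is not a result.

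The type 2 and Th9 programme genes that passed the test were all higher in Th9 cells. Of 20 measured members, 9 were higher than in both other kinds and 0 were lower, beside 3.73% and 2.51% of all genes. The list median was 0.36 against Th1 and 0.45 against Th17, where all genes had a median of 0.01 in both comparisons. This list, like the others below, was drawn up with results of these data known, so its count is a description. Lists can share members. Dusp6 and Irf4, called higher here, are also in the list of AP-1, IRF and Egr factors, and Irf4 is among the Th17 genes. Il4, the main cytokine of the type 2 programme, lay at 743 and 844 in Th9, at 146 and 114 in Th17 and at -0.5 and 0.1 in Th1. The arrays of the 3 kinds did not overlap, with Th1 not above background. Il4 was at least 12.3-fold higher than in Th1, and higher than in Th17 by 2.23 ± 0.11 (adjusted p = 1.06e-11).

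Gata3, the transcription factor that directs type 2 differentiation, lay at 1104 and 1234 in Th9 against 131 and 93.2 in Th1 and 373 and 387 in Th17. Both Th9 arrays were the highest and the Th1 arrays the lowest, with differences of 2.58 ± 0.11 from Th1 and 1.57 ± 0.11 from Th17 (adjusted p = 1.79e-09). Irf4, a factor required for Th9 and Th17 differentiation, lay at 890.5 and 1115 in Th9 against 298 and 261 in Th1 and 169 and 162 in Th17. Here Th17 was the lowest kind, and the differences were 1.35 ± 0.11 and 2.32 ± 0.11 (adjusted p = 2.47e-08). Il24, a cytokine of the interleukin 10 family, lay at 214 and 217 in Th9 and between 12.3 and 18.9 on the other 4 arrays, with differences of 1.66 and 1.86. Pparg, a lipid-sensing nuclear receptor with a role in type 2 cells, lay at 90.6 and 71.3 in Th9 against 7 and 7.8 in Th1 and -8.7 and -7.8 in Th17, where it was not above background. Il10, an inhibitory cytokine, lay at 48.7 and 53.6 in Th9 against 4.2 and -1.4 in Th1 and 11 and 3.9 in Th17, and was at least 1.59-fold higher than in Th1.

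Several defining genes of the programme did not stand apart. Il13, another type 2 cytokine, lay at 22.1 and 21.3 on the Th9 arrays, 21.7 and 5.6 on the Th1 arrays and 21.9 and 0.3 on the Th17 arrays, and the kinds overlapped. Batf, an AP-1 family partner of Irf4, lay at 246 and 298 in Th9 and 276 and 278 in Th17, which overlapped, with 198 and 162 in Th1. Il5 was above background on 1 array, with 5.8 and 9.8 in Th9, and Spi1, which encodes PU.1, also on 1, with 0.8 and 7 in Th9. Neither was tested. Maf, a factor that drives Il4 and Il21, lay at 4.3 and 7.2 in Th9 against 2.4 and 3.8 in Th1 and 16.4 and 14.7 in Th17 and was not called.

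Secreted ligands that passed were mostly higher. Of 43 measured cytokines and other ligands outside the type 2 list, 12 were higher in Th9 than in both other kinds and 2 lower. These were 27.9 and 4.65%, beside 3.73 and 2.51% of all genes. The list medians were 0.17 against Th1 and 0.24 against Th17. Penk, the gene of the opioid precursor proenkephalin, lay at 479 and 498 in Th9 against 18.5 and 16.1 in Th1 and 17.9 and 22.9 in Th17. The Th9 arrays stood alone, a gap of 2.59 log2 units, with differences of 2.67 ± 0.11 and 2.73 ± 0.11 (adjusted p = 1.43e-12). Pros1, the anticoagulant protein S and a ligand of TAM receptors, lay at 737 and 773 in Th9 against 110.2 and 79.8 in Th1 and 91.2 and 75.1 in Th17. Its differences were 2.15 ± 0.11 and 2.56 ± 0.11 (adjusted p = 4.30e-11), and the groups did not overlap.

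Nts, the precursor of the peptide neurotensin, lay at 116 and 183 on the Th9 arrays, 3.4 and -0.5 on the Th1 arrays and 10.8 and 2.5 on the Th17 arrays, at least 2.93-fold higher than in Th1. Lif, leukaemia inhibitory factor, lay at 174 and 206 in Th9 against 30.7 and 24.8 in Th1 and 5.9 and 7.8 in Th17, with differences of 1.32 and 1.84. Both genes were thus dim outside Th9. Ebi3, a subunit of interleukin 27 and interleukin 35, lay at 371 and 475 in Th9 against 139 and 130.4 in Th1 and 29.1 and 19.9 in Th17, so Th1 was intermediate. Tnfsf13b, the B cell survival factor BAFF, had the same order at 185 and 178, 71.9 and 57.1 and 22.1 and 23.3.

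The ligands that were lower were Sema4a and Ltb. Sema4a, a membrane semaphorin, lay at 395 and 463 on the Th9 arrays, 916 and 553 on the Th1 arrays and 1378 and 1197 on the Th17 arrays, with differences of -0.97 and -1.40. Ltb, the membrane partner of lymphotoxin, differed by -0.47 and -0.58 (adjusted p = 0.0228), and its deposited intensities overlapped, at 577 and 679 in Th9 and 932 and 546 in Th1. Its call was lost with arrays scaled to their median and without Th1 replicate 1, Th17 replicate 2 or either Th9 replicate.

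Receptors moved in both directions. Of 45 measured cytokine receptors and their signalling genes, 5 were higher and 6 lower in Th9 than in both other kinds. These were shares of 11.1 and 13.3%, beside 3.73 and 2.51% of all genes. With median scaling 4 were higher and 2 lower. The list median was -0.03 against Th1 and -0.09 against Th17. Under median scaling the value against Th1 was 0.06, where the median of all genes was 0.14. Il18r1, a chain of the interleukin 18 receptor, had the widest gap among named lower genes. It lay at 69.1 and 48.1 in Th9 against 815 and 765 in Th1 and 1099.8 and 905 in Th17. Every other array was more than 10 times as bright as the brighter Th9 array, with differences of -3.12 ± 0.13 and -3.06 ± 0.13 (adjusted p = 1.43e-12). A second Il18r1 probe, near background, gave -0.34 and -0.48 and was not called against both.

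Ifngr1, the ligand-binding chain of the interferon gamma receptor, lay at 192 and 250.5 in Th9 against 612 and 384 in Th1 and 703 and 572 in Th17, lower, with differences of -1.27 ± 0.12 and -1.25 ± 0.12 (adjusted p = 3.37e-07). Stat4, which carries the interleukin 12 signal, differed by -0.65 and -1.07. Socs3, an inhibitor of STAT3 signalling, lay at 257 and 239 on the Th9 arrays, 291 and 323 on the Th1 arrays and 3075 and 2517 on the Th17 arrays. Its difference from Th1 was therefore small (-0.59) beside that from Th17 (-3.12). Il17ra (-0.50 and -0.64) and Il2rg, the common gamma chain (-0.48 and -0.34), completed the named lower genes. All of these except Il18r1 and Ifngr1 lost the call with arrays scaled to their median.

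Among those higher, Tgfbr1, the signalling chain of the transforming growth factor beta receptor, lay at 647 and 752 in Th9 against 238 and 172 in Th1 and 478 and 430.2 in Th17. The arrays did not overlap, and the differences were 1.23 ± 0.11 and 0.64 ± 0.11 (adjusted p = 0.000177). Il2ra, the interleukin 2 receptor alpha chain, lay at 619.6 and 669 in Th9 against 409 and 316 in Th1 and 357 and 351 in Th17 (differences 0.44 and 0.84). Cish, an inhibitor of STAT5 signalling, differed by 0.44 and 0.70, the kinase gene Jak2 by 0.85 and 0.52, and Socs1 by 0.39 and 0.54. Each of these except Tgfbr1 lost the call when some single array was left out.

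Of 34 measured chemokine receptors and other G protein-coupled receptors, 4 were higher and 6 lower. These were shares of 11.8 and 17.6%, beside 3.73 and 2.51% of all genes. With median scaling 3 were higher and 3 lower. The list median was -0.04 against Th1 and -0.09 against Th17. With median scaling the value against Th1 was 0.02, where the median of all genes was 0.14. Gpr83 lay at 203 and 325 on the Th9 arrays, 22.8 and 15.4 on the Th1 arrays and 68.9 and 46.6 on the Th17 arrays, with differences of 1.85 ± 0.13 and 1.45 ± 0.13 (adjusted p = 4.06e-08), although a second probe of the gene was not called. Ptgir, the prostacyclin receptor, lay at 46.1 and 58.8 in Th9 and 22.6 and 22.6 in Th17 and was not above background in Th1, with an increase of at least 1.61-fold over Th1. P2ry10 (0.60 and 0.43) and the sphingosine 1-phosphate receptor S1pr2 (0.43 and 0.68) were higher by less. Other probes of P2ry10 (0.64 and 0.21, 0.02 and 0.04) and of S1pr2 (0.06 and 0.05) were not called.

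Gpr18 lay at 213 and 253 in Th9 against 897 and 777 in Th1 and 757 and 707 in Th17. It was lower, with differences of -1.91 ± 0.11 and -1.37 ± 0.11 (adjusted p = 7.85e-09), with no overlap. Lpar6, a lysophosphatidic acid receptor, lay at 186 and 242 in Th9 against 451 and 352 in Th1 and 1216 and 1045 in Th17. Cxcr4, the receptor of the chemokine CXCL12, differed by -0.59 and -0.65, and Gpr183, an oxysterol receptor that guides cells within lymphoid tissue, by -0.52 and -1.14. S1pr4 (-0.36 and -0.79) and the proton sensor Gpr65 (-0.90 and -0.42) were also lower. With median scaling the calls for Cxcr4, Gpr183, S1pr4 and P2ry10 were lost, and those for S1pr4, Gpr65, Ptgir, P2ry10 and S1pr2 were lost without some single array.

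Promoter sequence was examined for letters bound by factors of this programme. RefSeq promoter sequence on GRCm38.p6, 250 bases before the most 5′ listed start, was matched for 354 of the 451 higher genes, 239 of the 303 lower genes and 9579 of all genes tested. On either strand, GAAANNGAA, the core of a site for interferon regulatory factors, was present in 5.08% of higher, 11.3% of lower and 6.24% of all these promoters. In the same order of higher, lower and all promoters, the AP-1 site TGANTCA was present in 5.08, 5.02 and 4.52%. TGACGTCA, a cyclic AMP response site, was present in 1.41, 0.418 and 2.58%. The shares that held the letters of a GATA site were 6.21, 7.95 and 6.34%, searched as AGATAA. These motifs do not contain each other, and a match is a description of letters and not a site shown to be bound.

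The 4 promoters below are those of Il4 and Gpr18, the higher and the lower gene of widest gap among those named that hold the interferon regulatory factor letters, and of Nts and Lif, the higher genes of widest gap that hold AP-1 letters. Capitals mark the matches, and each sequence reads 5′ to 3′ on the gene's strand and ends at the base before the start. In Il4 (chr11:53618666-53618915, minus strand) the match is on the opposite strand and begins 189 bases before the start. In Nts (chr10:102490419-102490668, minus strand) the AP-1 letters begin 207 and GATA letters 131 bases before it, in Lif (chr11:4257318-4257567, plus strand) the AP-1 letters begin 228 bases before it, and in Gpr18 (chr14:121915889-121916138, minus strand) the match begins 41 bases before it.
Il4: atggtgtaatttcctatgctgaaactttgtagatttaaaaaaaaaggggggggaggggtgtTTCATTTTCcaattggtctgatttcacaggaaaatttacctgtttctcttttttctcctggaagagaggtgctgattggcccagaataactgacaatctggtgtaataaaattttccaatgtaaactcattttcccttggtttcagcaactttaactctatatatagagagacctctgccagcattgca
Nts: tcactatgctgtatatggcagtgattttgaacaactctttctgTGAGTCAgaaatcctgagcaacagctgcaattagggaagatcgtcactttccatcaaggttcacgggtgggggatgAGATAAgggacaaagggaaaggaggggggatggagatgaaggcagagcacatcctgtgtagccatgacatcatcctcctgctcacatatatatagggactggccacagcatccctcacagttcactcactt
Lif: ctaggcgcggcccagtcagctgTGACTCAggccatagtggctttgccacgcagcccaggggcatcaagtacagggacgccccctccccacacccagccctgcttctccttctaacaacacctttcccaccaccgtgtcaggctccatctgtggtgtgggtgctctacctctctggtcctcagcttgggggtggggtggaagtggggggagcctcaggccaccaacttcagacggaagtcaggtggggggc
Gpr18: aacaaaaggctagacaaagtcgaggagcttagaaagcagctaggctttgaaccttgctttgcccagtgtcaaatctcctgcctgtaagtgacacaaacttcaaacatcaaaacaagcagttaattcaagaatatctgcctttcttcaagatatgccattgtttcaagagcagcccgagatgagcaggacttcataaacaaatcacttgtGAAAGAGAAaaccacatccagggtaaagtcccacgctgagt

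Genes associated with regulatory T cells were the list with the largest share called. Of 16 measured members, 10 were higher in Th9 than in both other kinds (62.5%, beside 3.73% of all genes) and 0 lower. Medians were 0.89 against Th1 and 0.92 against Th17. Without background correction 4 were higher, where 76 of all genes were. The 10 members included Penk, Gpr83, Ebi3, Il10 and Il2ra, given above, and earlier results of these data had already shown this list higher against Th1. Tnfrsf4, the costimulatory receptor OX40, lay at 2941 and 2945 on the Th9 arrays, 1053 and 923 on the Th1 arrays and 835 and 841 on the Th17 arrays. All 4 other arrays lay below 1100, and the differences were 1.29 ± 0.11 and 1.88 ± 0.11 (adjusted p = 7.10e-08). Tnfrsf18, the related receptor GITR, lay at 3061 and 3654, 1461 and 1312 and 1240.2 and 1225 in the same order of kinds, again with no overlap.

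Izumo1r, the folate receptor 4 of regulatory and anergic T cells, lay at 80.3 and 97.4 in Th9 and at no more than 7 on the other arrays. It was at least 2.11-fold higher than in Th1, where it was not above background. Itgae, the integrin alpha chain CD103, lay at 152 and 211 in Th9 against 10.4 and 10.5 in Th1 and 57.5 and 64.2 in Th17, with no overlap (adjusted p = 1.28e-06). Foxp3, the lineage factor of those cells, lay at 368 and 366 in Th9 against 227 and 209 in Th1 and 391 and 360.5 in Th17, overlapped between Th9 and Th17, and was not called (differences 0.29 and 0.03, adjusted p = 0.921).

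Of 46 measured costimulatory and inhibitory receptors, 10 were higher and 8 lower, shares of 21.7 and 17.4% beside 3.73 and 2.51% of all genes. With median scaling 10 were higher and 3 lower. The list median was -0.03 against Th1 and 0.01 against Th17. With median scaling the value against Th1 was 0.17, where the median of all genes was 0.14. Besides Tnfrsf4 and Tnfrsf18, Cd83 lay at 123 and 139 on the Th9 arrays, 36.6 and 24.7 on the Th1 arrays and 7.7 and -0.4 on the Th17 arrays. Tnfrsf13b, the receptor TACI, lay at 888 and 1003, 367 and 272 and 681 and 630.3, so it was nearer to Th17. The tetraspanin gene Cd82 differed by 0.91 and 0.74. Cd24a, a small surface glycoprotein, lay at 50.5 and 61.2 in Th9 and was not above background in Th1, at least 1.66-fold lower there.

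Cd27, a costimulatory receptor kept by less differentiated T cells, was among the lower ones, at 657 and 727 in Th9 against 1412 and 1549 in Th1 and 2954 and 2872 in Th17. The 3 kinds did not overlap, with Th17 highest, and the differences were -1.30 ± 0.12 and -1.87 ± 0.12 (adjusted p = 2.82e-07). Cd6, a surface receptor of T cells, lay at 576 and 666, 1572 and 1331 and 2542 and 2273 and differed by -1.42 ± 0.11 and -1.76 ± 0.11 (adjusted p = 9.24e-09). Vsir, the inhibitory receptor VISTA, lay at 54.2 and 48.9, 108 and 100.1 and 478 and 569, so Th1 was much nearer than Th17. Tnfrsf25, the receptor DR3 (-0.44 and -1.27), Tnfrsf26 (-0.60 and -0.74) and the inhibitory receptor Btla (-0.41 and -0.62) were lower by less, and these 3 lost the call with median scaling.

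Transcription factors of the AP-1, IRF and Egr families and immediate early genes included 11 higher and 3 lower of 55 measured. These were 20 and 5.45%, beside 3.73 and 2.51% of all genes. The list median was 0.14 against Th1 and -0.06 against Th17. Dusp6, a phosphatase that switches off ERK kinases, lay at 1450 and 1517 in Th9 against 288 and 276 in Th1 and 522 and 443 in Th17. It did not overlap, with differences of 1.91 ± 0.11 and 1.63 ± 0.11 (adjusted p = 1.40e-09). Dusp4, a related phosphatase, lay at 462 and 491, 189 and 125 and 40.9 and 44.1. Egr2, a factor induced by T cell receptor signals, lay at 135 and 151 on the Th9 arrays, 2.4 and 6.6 on the Th1 arrays and 27.5 and 36.3 on the Th17 arrays, and Egr3 at 431 and 519, 72.5 and 62 and 254 and 212. For both Egr genes Th17 was intermediate, and a dim second Egr3 probe was not called. Irf5, a factor of inflammatory genes, lay at 87.5 and 83.3 in Th9 against 29.3 and 23.2 in Th1 and 12.5 and 8.8 in Th17.

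Batf3, an AP-1 factor best known in dendritic cells, lay at 552 and 636 in Th9 against 397 and 312 in Th1 and 29.7 and 31.5 in Th17. The Th1 difference of 0.35 only just passed (adjusted p = 0.0415), and the call was lost whichever single array was left out. A second Batf3 probe (-0.10 and 1.79) was not called. The lower members were Irf1 (-1.19 and -0.35), Irf9 (-0.61 and -0.52) and Bach2, a repressor of effector genes (-0.41 and -0.99). Irf9 and Bach2 lost the call with median scaling, and Irf1 and Bach2 without some single array.

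Of 74 other transcription and chromatin regulators, 5 were higher and 7 lower (6.76 and 9.46%, beside 3.73 and 2.51% of all genes). The list medians were 0.01 against Th1 and -0.13 against Th17. With median scaling the counts became 6 higher and 0 lower. Id2, which blocks E protein factors, lay at 1430.5 and 1781 on the Th9 arrays, 849 and 602 on the Th1 arrays and 961 and 1036 on the Th17 arrays. Ezh2, the histone H3 lysine 27 methyltransferase, differed by 0.63 and 0.93, and Crem, a cyclic AMP responsive factor, by 0.78 and 1.11. Other Ezh2 probes gave -0.06 and 0.35, and 0.07 and 0.44, and were not called. The Ezh2 call was lost with an offset of 16, without background correction and with the mean of all kept probes. Among those lower, Klf2, which maintains trafficking receptors of resting T cells, lay at 295 and 432, 618 and 406 and 1663 and 1575, where the deposited Th9 and Th1 intensities overlapped. Lef1, a factor of naive and memory T cells, lay at 135 and 156, 194 and 158 and 310.2 and 389, and Trps1 differed by -0.70 and -1.18. Other Lef1 probes (-0.09 and -0.49, -0.35 and -0.86) were not called.

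Of 46 measured T cell receptor signalling genes, 4 were higher and 7 lower, or 8.70 and 15.2% beside 3.73 and 2.51% of all genes. With median scaling, however, 4 were higher and 2 lower. The list median of -0.08 against Th1 became 0.12 under that scaling, where the median of all genes was 0.14. Itpr1, the calcium channel opened by inositol trisphosphate, lay at 111 and 117 in Th9 against 19.6 and 11 in Th1 and 22.7 and 10.8 in Th17. Trat1, an adaptor of the receptor complex, lay at 921 and 944, 488 and 410.4 and 348 and 305. For neither gene did Th9 overlap the other kinds. The lower members included genes that restrain or relay the signal. Pik3cd, the p110 delta kinase subunit, differed by -0.73 and -0.89, and Pik3ip1, an inhibitor of that pathway, by -0.73 and -1.54. Another Pik3cd probe (-0.31 and -0.21) was not called. The diacylglycerol kinase genes Dgka (-0.50 and -1.35) and Dgkz (-0.51 and -0.51) and the phosphatase gene Ptpn22 (-0.44 and -0.46) lost the call with median scaling. Other Dgkz probes gave -0.26 and -0.52, and 0.16 and -0.24, and were not called.

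Of 46 NF-kB, TRAF and death signalling genes, 7 were higher and 2 lower, or 15.2 and 4.35% beside 3.73 and 2.51% of all genes. Without background correction 0 were called. Bcl2a1b and Bcl2a1d, near-identical genes of a survival protein that the probes may not separate, lay at 518 and 661 and 549 and 562 in Th9 and at no more than 275 elsewhere. Nfkbiz, a nuclear regulator of NF-kB, differed by 0.78 and 0.63, and Nfkb2, the precursor of p52, by 0.46 and 0.53. Bcl2l11, the death-promoting protein BIM, was lower at 129 and 161 in Th9 against 344 and 205 in Th1 and 349 and 355 in Th17. Traf6, an adaptor of NF-kB signalling, did not stand apart, at 495 and 573 in Th9 against 301 and 242 in Th1 and 491 and 398 in Th17 (differences 0.52 and 0.30, adjusted p = 0.0643).

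**Figure D2:**
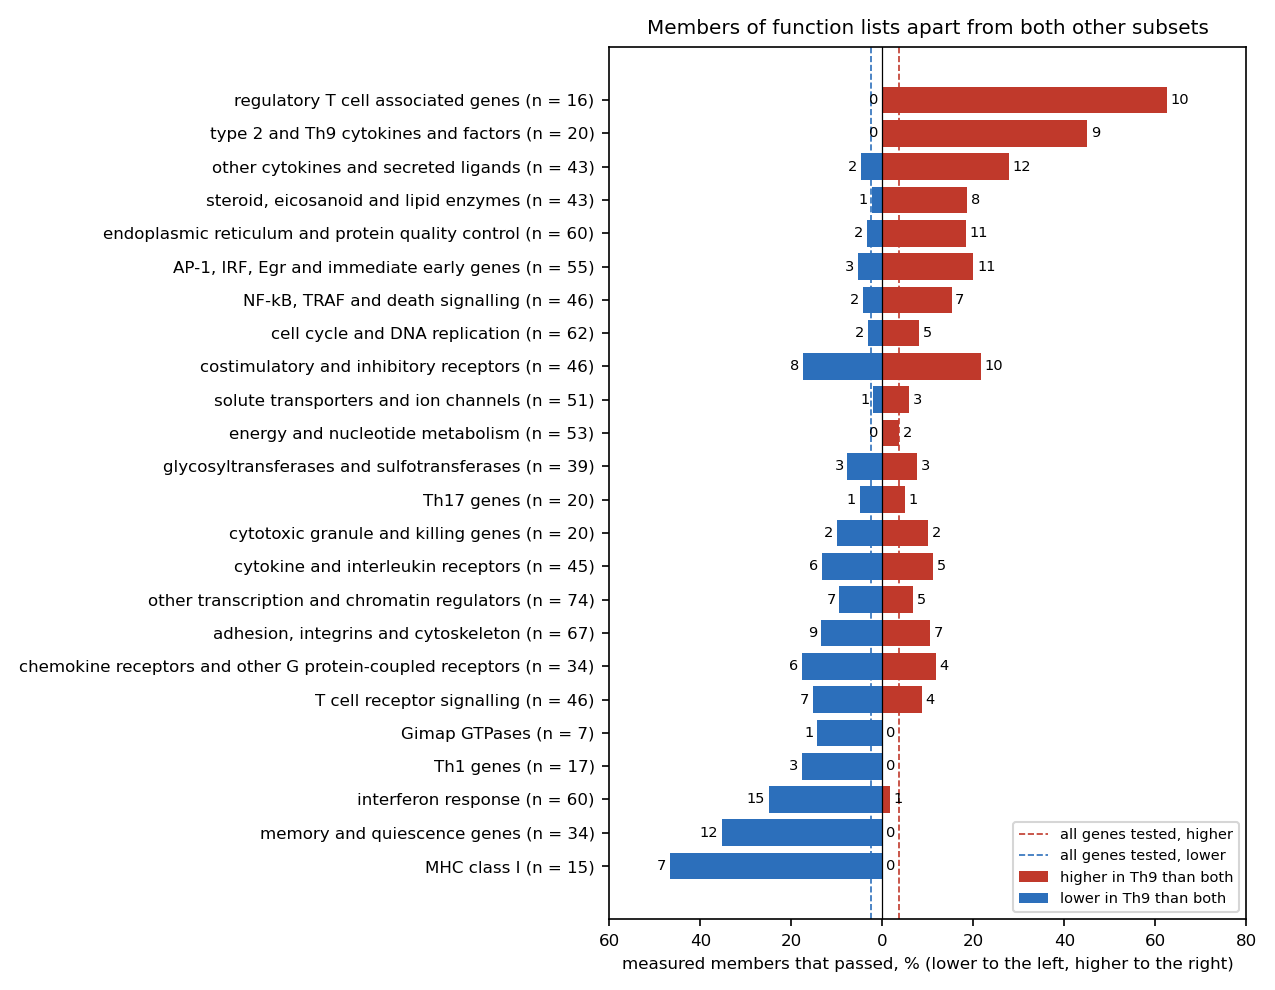
Share of the measured members of each function list that were higher (to the right) or lower (to the left) in Th9 than in both other kinds, in percent, with the number called beside each bar and n the members measured. Dashed lines mark the 3.73% higher and 2.51% lower among all genes tested. Regulatory T cell genes reach 62.5% higher and MHC class I genes 46.7% lower. Without background correction these fell to 4 of 16 and 0 of 15 members.

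Of 67 adhesion and cytoskeleton genes, 7 were higher and 9 lower (10.4 and 13.4%, beside 3.73 and 2.51% of all genes). With median scaling, however, 8 were higher and 7 lower. The list median of -0.04 against Th1 became 0.13 under that scaling, where the median of all genes was 0.14. S100a1, a calcium-binding protein, lay at 663 and 834 on the Th9 arrays, 167 and 142 on the Th1 arrays and 33 and 23.6 on the Th17 arrays. Tubb6, a beta tubulin, lay at 556 and 619.8 in Th9 and between 124 and 175 on the other arrays. Myo6, an unconventional myosin, lay at 1549 and 2259 in Th9 against 43.1 and 40.5 in Th1 and 1223 and 1217 in Th17. Its differences of 4.08 and 0.73 were thus far larger against Th1 than against Th17. Among those lower, Actn1, an actin crosslinker, lay at 214 and 277, 589.9 and 408 and 1338 and 1318, and Emp1 at 248 and 309, 469 and 419 and 2238 and 2037. Itgb7, an integrin chain of gut homing and the partner of Itgae, differed by -0.75 and -0.91, and Selplg, the selectin ligand PSGL-1, by -0.62 and -0.55.

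Glycan enzymes were split, with 3 higher and 3 lower of 39, or 7.69% each way beside 3.73 and 2.51% of all genes. Hs3st1, a heparan sulfate sulfotransferase, lay at 125 and 162 in Th9 and 12.2 and 10.3 in Th1 and was at least 2.91-fold lower in Th17, where it was not above background. The sialyltransferase gene St3gal6 was lower at 80.6 and 93.5 in Th9 against 265 and 257 in Th1 and 257 and 241 in Th17, and the related St6galnac3 differed by -0.68 and -1.43. St8sia4, which builds polysialic acid, was higher by 0.61 and 0.61.

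Steroid, eicosanoid and lipid enzymes included 8 higher and 1 lower of 43, or 18.6 and 2.33% beside 3.73 and 2.51% of all genes. Medians were 0.15 against Th1 and 0.09 against Th17. Akr1c18, an enzyme that inactivates progesterone, had the widest gap of all genes, 4.16 log2 units. It lay at 1400.1 and 1338 in Th9 against -3 and 2.7 in Th1 and 12.8 and 10.4 in Th17. It was at least 20.8-fold higher than in Th1, where it was not above background, and higher than in Th17 by 4.31 ± 0.12 (adjusted p = 5.15e-15). Akr1c12, of the same family, lay at 2110.5 and 2226 on the Th9 arrays, 512 and 376 on the Th1 arrays and 651 and 723 on the Th17 arrays. Members of this family are similar enough that a probe may read more than 1 of them.

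Cyp11a1, which makes pregnenolone from cholesterol as the entry step of steroid synthesis, was dim, at 48.6 and 44.6 in Th9 against 7.6 and -1 in Th1 and 10.8 and 2.3 in Th17, and a second probe was not called. Scd1, a fatty acid desaturase, lay at 167 and 186 in Th9 and between 32.5 and 44.5 elsewhere, and Lpl, lipoprotein lipase, at 60.9 and 80.6 in Th9 and 16.2 or less elsewhere. Hsd11b1, which regenerates active glucocorticoid, was the lower member. It lay at 122 and 124 in Th9 against 492 and 435 in Th1 and 721 and 623 in Th17, with differences of -1.81 ± 0.11 and -1.93 ± 0.11 (adjusted p = 5.26e-10), and its 3 other probes were also called lower.

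Genes of the endoplasmic reticulum and protein quality control included 11 higher and 2 lower of 60. These were 18.3 and 3.33%, beside 3.73 and 2.51% of all genes. Medians were 0.09 against Th1 and 0.10 against Th17. Without background correction 0 were called. Asb2, a substrate receptor of a ubiquitin ligase, lay at 985 and 1195 on the Th9 arrays, 179 and 128 on the Th1 arrays and 84.2 and 42.2 on the Th17 arrays, with no overlap and differences of 2.15 ± 0.13 and 3.29 ± 0.13 (adjusted p = 3.72e-10). Chaperones of the secretory pathway moved by less. Hspa5, the chaperone BiP, lay at 115 and 163 in Th9 against 63.3 and 33.1 in Th1 and 68.9 and 57.9 in Th17. Xbp1, a factor of the unfolded protein response, differed by 1.05 and 0.53, Pdia3 by 0.52 and 0.46 and Hsp90b1 by 0.37 and 0.40. These last 3 lost the call with median scaling, under which 9 members of the list were higher and 0 lower.

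Energy and transport genes passed at shares near those of all genes. Of 53 energy and nucleotide genes 2 were higher and 0 lower, namely Cox6b2, a cytochrome oxidase subunit (523 and 711 in Th9, 232 and 202 in Th1, 23.9 and 40 in Th17), and the mitochondrial creatine kinase gene Ckmt1 (0.81 and 2.76). Another Ckmt1 probe (0.16 and 0.79) was not called. Of 51 transporters and channels 3 were higher and 1 lower. Kcnk5, a potassium channel, lay at 886 and 947 in Th9 against 333 and 258 in Th1 and 263 and 246 in Th17. Slc7a8, an amino acid transporter, lay at 31.1 and 36.8 in Th9 and was above background in neither other kind, so it passed the filter only through Th9. Of 62 cell cycle genes 5 were higher and 2 lower, or 8.06 and 3.23% beside 3.73 and 2.51% of all genes. Cdkn1a, the cell cycle inhibitor p21, lay at 2557 and 2649 on the Th9 arrays, 1175 and 1155 on the Th1 arrays and 573 and 506 on the Th17 arrays, and Mdm2 differed by 0.50 and 0.96. The lower members were Sesn1 and Cdkn2d.

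Interferon response genes that passed were nearly all lower in Th9 cells. Of 60 measured, 15 were lower than in both other kinds and 1 was higher. These were 25 and 1.67%, beside 2.51 and 3.73% of all genes. Medians were -0.52 against Th1 and -0.07 against Th17. With median scaling 9 were lower and 2 higher. Samd9l, an interferon-induced inhibitor of virus growth, lay at 309 and 418 in Th9 against 727 and 564 in Th1 and 1191 and 980.5 in Th17. Samhd1, a nucleotide hydrolase that restricts viruses, lay at 494 and 476, 1081 and 902 and 1101 and 1087, with differences of -1.25 ± 0.11 and -1.01 ± 0.11 (adjusted p = 1.53e-06). For neither gene did any Th9 array reach the level of another kind. The interferon-induced GTPase Irgm2 lay at 278 and 312 in Th9 against 1216 and 700.1 in Th1 and 629 and 494 in Th17, and Ifi47 at 474 and 549, 1238 and 887 and 848 and 860.2. For both GTPases Th1 held the highest array. The member called higher was Socs1, an inhibitor of interferon signalling (0.39 and 0.54, adjusted p = 0.0449), whose call was lost without Th17 replicate 2 or any Th9 or Th1 array.

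MHC class I genes showed the largest lower share, 7 of 15 measured (46.7%, beside 2.51% of all genes) with 0 higher. Medians were -0.87 against Th1 and -0.22 against Th17. With median scaling 6 were lower, but without background correction 0 were, where 46 of all genes were. H2-K1, a classical class I heavy chain, lay at 1212 and 1314 on the Th9 arrays, 2978 and 2461 on the Th1 arrays and 2077 and 2087 on the Th17 arrays. The 3 kinds were in separate ranges, with differences of -1.29 ± 0.11 and -0.57 ± 0.11 (adjusted p = 0.000677). H2-D1 lay at 2298 and 2778, 4289.8 and 3365 and 4031 and 3722, and H2-T23, the gene of the nonclassical molecule Qa-1, at 869 and 894, 1925 and 1601 and 1490.4 and 1316. H2-Q7 (-1.60 and -0.59) and H2-T10 (-1.30 and -0.54) were also lower. The class I genes are near-identical in part, so a probe may read more than 1, and other probes of H2-K1, H2-Q7 and H2-T23 were not called. The calls for H2-Q7 and H2-D1 were lost without Th9 replicate 1.

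The lists of the other helper kinds gave few genes apart from both. Of 17 Th1 genes 3 were lower in Th9 and 0 higher, namely Il18r1, Stat4 and Klrd1, of which only Il18r1 kept the call with median scaling. That lower share was 17.6%, beside 2.51% of all genes. Ifng, the Th1 cytokine, lay at 27.5 and 22.1 in Th1 and at 6.1 and 5 in Th9, close to the 7.2 and 0.9 of Th17. Of 20 Th17 genes, 1 was higher, Irf4, and 1 lower, Socs3. These shares, 5% each way, were near the 3.73 and 2.51% of all genes. Il21 lay at 32.6 and 19.7 in Th17 and was not above background in Th9 or Th1. Of 20 cytotoxic genes, 2 were higher and 2 lower, or 10% each way beside 3.73 and 2.51% of all genes. With median scaling 2 were higher and 0 lower. Gzmd, a granzyme of a family of similar genes, lay at 198 and 292 in Th9 against 31.4 and 27.6 in Th1 and 10.8 and 11.9 in Th17, with differences of 1.55 ± 0.11 and 2.02 ± 0.11 (adjusted p = 7.24e-09), while a second probe was not called. Ctsw, a cysteine protease of killer cells, was lower, with differences of -1.46 and -0.37, and Eomes, a factor of cytotoxic cells, was not called, at 19.2 and 44.8 in Th9 and 17.3 and 9.1 in Th1.

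The memory and quiescence genes that passed were all lower. Of 34 measured, 12 were lower than in both other kinds (35.3%, beside 2.51% of all genes) and 0 higher. Medians were -0.24 against Th1 and -0.77 against Th17, and 7 were lower with median scaling. Trib2, a pseudokinase, lay at 96.5 and 151 in Th9 against 382 and 375 in Th1 and 938 and 908 in Th17, with differences of -1.59 ± 0.12 and -2.36 ± 0.12 (adjusted p = 9.61e-09). Ripor2, an inhibitor of RhoA, lay at 68 and 59.6, 178 and 162 and 828 and 740.4. Ly6c1, a surface antigen whose probe may also read its close relative, lay at 164 and 183, 369.6 and 306 and 420.5 and 443. Tsc22d3, a glucocorticoid-induced factor, differed by -0.76 and -1.53, while another probe (-0.16 and -1.06) was not called. Trib2, Ripor2 and Tsc22d3 shared the order Th9, then Th1, then Th17 highest. Il7r, the receptor chain that sustains resting T cells, lay at 708 and 835 on the Th9 arrays, 870.4 and 619 on the Th1 arrays and 2251 and 2482 on the Th17 arrays and was not called, since its Th1 difference was -0.22 (adjusted p = 0.31). Gimap6 was the 1 of 7 Gimap GTPase genes called, lower at 591 and 699.5 in Th9 against 1114 and 1172 in Th1 and 1311 and 954 in Th17.

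**Figure D3:**
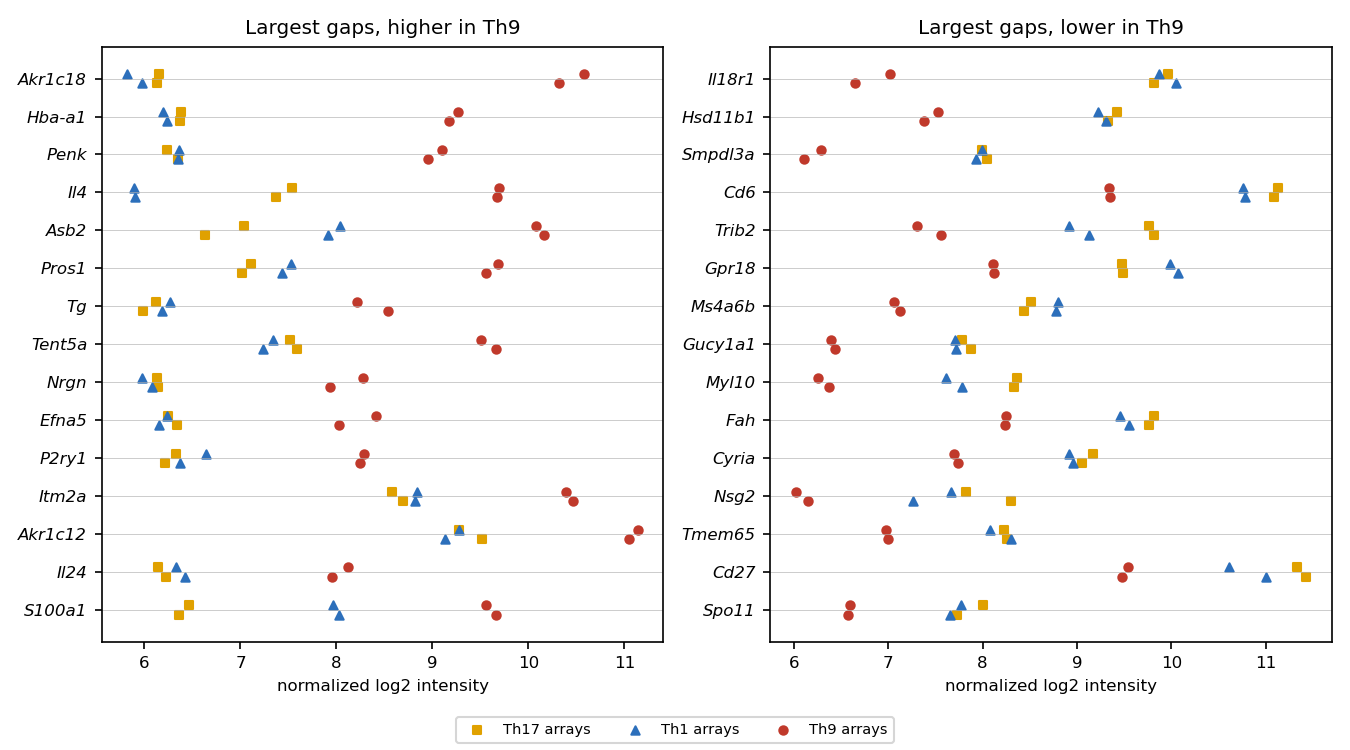
Normalized log2 intensity on each of the 6 arrays (horizontal axis) for the 15 named genes of widest gap in each direction, with 2 points for each kind. The left panel holds genes higher in Th9, from Akr1c18 with a gap of 4.16, and the right panel genes lower in Th9, from Il18r1 with a gap of -2.79. The genes were chosen by their gap, so by that rule no Th9 point overlaps the points of the other kinds in either panel.

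Most of the genes apart from both kinds lay outside these lists, 561 of 753, and 24 of the 753 had only a provisional symbol. Several had wide gaps. Tg, the thyroid hormone precursor thyroglobulin, lay at 234 and 359.5 in Th9 and at no more than 14.5 elsewhere, with differences of 2.15 and 2.32. Tent5a, a poly(A) polymerase, lay at 640.2 and 838 in Th9 against 89.7 and 64.3 in Th1 and 143 and 143 in Th17. Nrgn, a calmodulin-binding protein of neurons, lay at 248 and 213 in Th9 and at 11.8 or less elsewhere. Efna5, a ligand of Eph receptors, lay at 277 and 231 in Th9 and at 22.2 or less elsewhere, though a second probe was not called. P2ry1, an ADP receptor, lay at 249.8 and 283 in Th9 and at 34.5 or less elsewhere. Itm2a, a membrane protein induced on T cell activation, lay at 1228 and 1460.1 in Th9 and between 289 and 378 on the other arrays. These 6 genes were named for their wide gaps, so their clear Th9 arrays follow from the naming rule.

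On the lower side, Smpdl3a, a phosphodiesterase, lay at 18.3 and 10.5 in Th9 against 172 and 129.9 in Th1 and 231 and 224 in Th17. Ms4a6b, a membrane protein of T cells, lay at 72.5 and 94, 348 and 280.2 and 352 and 309. Gucy1a1, a subunit of the nitric oxide receptor guanylate cyclase, lay at 24.4 and 32, 132 and 106 and 189 and 192, although its 3 other probes, all dim, were not called. Fah, the last enzyme of tyrosine breakdown, lay at 241 and 279.8, 592 and 527 and 977 and 875. Differences from Th1 for these 4 genes were -1.77, -1.70, -1.30 and -1.26, and from Th17 -1.83, -1.38, -1.41 and -1.55. Myl10 (-1.38 and -2.03), Cyria (-1.22 and -1.39), Nsg2 (-1.38 and -1.97), Tmem65 (-1.20 and -1.26) and Spo11 (-1.13 and -1.28) completed the 15 named genes of widest gap. The transcript AA467197, named after its values were seen because its symbol is provisional, had a wider gap than any of these (-3.32). It lay at 287 and 316 on the Th9 arrays, 4730 and 4059 on the Th1 arrays and 4188 and 3669 on the Th17 arrays.

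Markers of cells other than T cells differed between the kinds beside these results, and their part in the results was not tested. For MHC class II and antigen presenting cells, the summed intensity of 18 genes was 4262 and 5100 in Th9, 2843 and 2382 in Th1, with 1614 and 1391 for Th17. Of 13 measured, 4 (30.8%, beside 3.73% of all genes) were higher in Th9 than in both, or 7 with median scaling, and 0 lower. Itgax, Clec9a, Xcr1 and Cd209a were above background on no array. Cd74, the class II invariant chain, lay at 1029.6 and 1172 in Th9 against 454 and 376 in Th1 and 142 and 90.8 in Th17. The class II chaperone genes H2-DMa (0.54 and 1.16) and H2-DMb2 (0.50 and 0.98) and Batf3 were the others. Among the 9 members not called were the class II chain genes H2-Aa (0.17 and 1.67), H2-Ab1 (0.13 and 0.94) and H2-Eb1 (0.13 and 1.94). Also not called were H2-Ob (0.05 and -0.70) and Siglech (-0.21 and -0.10). For B and plasma cells, 16 genes summed to 3195 and 3967 in Th9, 2678 and 2575 in Th1, with 1609 and 1493 for Th17. Of 12 measured, 3 were higher (Cd79b, Iglv1 and Fcmr) and 1 was lower (Ighm). These were 25 and 8.33%, beside 3.73 and 2.51% of all genes. Pax5, Blnk and Cr2 were above background on no array.

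Hba-a1, an alpha globin gene of red cells with a near-identical copy, had the second widest gap of the higher genes, at 544 and 583 in Th9 against 11.4 and 11.9 in Th1 and 27.3 and 24.4 in Th17 (adjusted p = 3.78e-13). Hbb-b1, a beta globin gene, lay at 53.7 and 56.8, 7.6 and 10.9 and 26.5 and 26.7, and its call was lost without Th9 replicate 1 or either Th17 replicate. The 15 erythroid and platelet genes summed to 2418 and 2775 in Th9, 1781 and 1556 in Th1, with 2041 and 1826 for Th17. Most of each sum was Tfrc, the transferrin receptor, which dividing T cells also express and which was not called, at between 1473 and 2043 over the 6 arrays. Of 12 measured genes, 2 were called higher (16.7%, beside 3.73% of all genes), the globin genes Hba-a1 and Hbb-b1. Alas2, which makes haem in red cells, was above background on no array. Granulocyte and mast cell genes summed to 149 and 207 in Th9, 38.6 and 77.1 in Th1, with 56.2 and 46.2 for Th17. Of 7 measured, 2 were higher, Chil3 at 68.6 and 85.3 and Cpa3 at 26.1 and 31.8 in Th9, both not above background in the other kinds. These 2 genes passed the filter only through their Th9 arrays, so their place among those measured depended on the Th9 level. Their count is therefore not a result. S100a8 and S100a9 were above background on no array.

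Melanocyte genes, included because the mice bore tumours, summed to 592 and 792 in Th9, 203 and 154 in Th1, with 318 and 265 for Th17. That sum rested on Gpnmb, a glycoprotein that other cells also make, at 541 and 756 on the Th9 arrays, 184 and 139.9 on the Th1 arrays and 288 and 237 on the Th17 arrays, while Dct, Mitf, Mlana, Sox10, Tyr and Tyrp1 were above background on no array. Monocyte and macrophage genes summed to 649 and 801 in Th9, 821 and 664 in Th1, with 1002 and 909 for Th17, with Adgre1 higher and Lyz1 lower of 6 measured. Adgre1 also passed the filter only through its Th9 arrays. No member was called among CD8 T cell, NK cell or stromal markers, with 1, 5 and 5 measured. Of the CD8 genes, Cd8a was above background on no array, while Cd8b1 was above background on all 6, at 1145 and 1258 on the Th9 arrays, 1164 and 1043 on the Th1 arrays and 718 and 552 on the Th17 arrays. The Cd8b1 difference from Th17 was 0.96, and the gene overlapped between Th9 and Th1. The T cell identity genes summed to 21658 and 23612 on the Th9 arrays, 25264 and 20928 for Th1, and 34937 and 33273 for Th17.

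**Figure D4:**
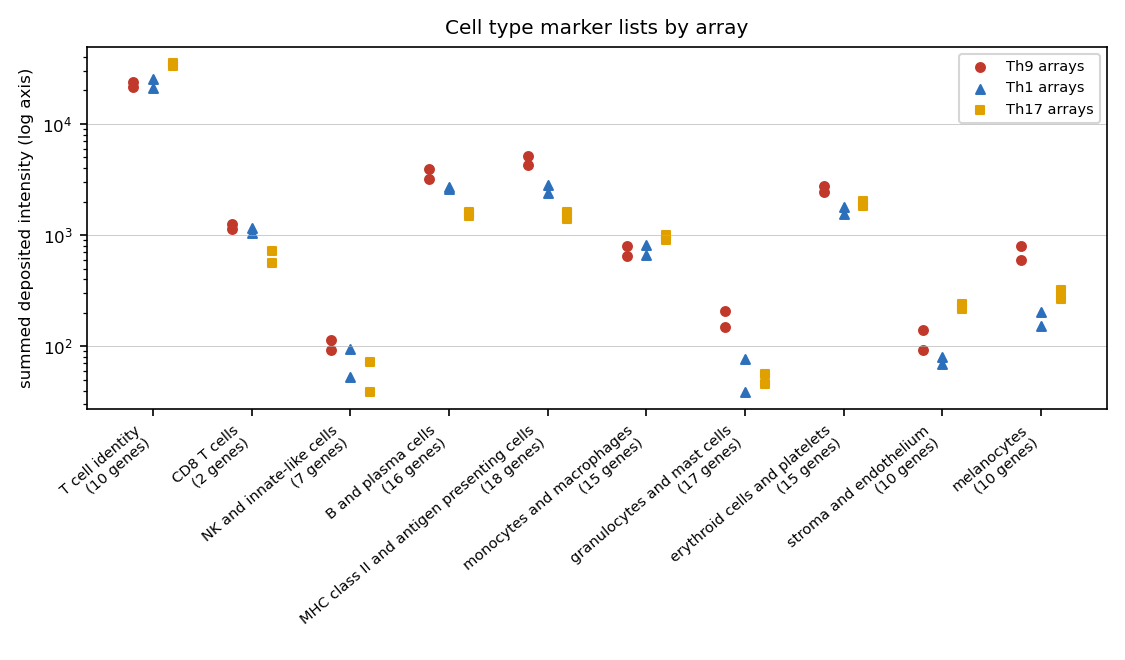
Summed deposited intensity of each cell type marker list on each array, on a log axis, with 2 points for each kind and the number of genes on the array in brackets. MHC class II and B cell lists are highest on the Th9 arrays, at 4262 and 5100 and at 3195 and 3967, and the T cell list is highest on the Th17 arrays.

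The non-overlap count has a threshold at a gap of 0, and in genes close to it the Th9 arrays nearly touched the others on the normalized scale. Just inside it, Blcap lay at 63.8 and 62.5 in Th9 against 35.8 and 37.4 in Th1 and 34.9 and 38.4 in Th17, with Snx16 and Nfat5 beside it. Just outside it were Orly, Apc and Tbl1xr1, of which Orly lay at 9.4 and 12.4, 6.6 and 7.7 and 6.4 and 4.3. None of these 6 was called by limma.

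Of 180 named genes called apart from both kinds, 81 had another kept probe. For 43 of these at least 1 other probe was called in the same direction, for 38 none was called, and in 0 cases was any called in the opposite direction. Leaving out either Th9 array cost the most calls, 39 without replicate 1 and 38 without replicate 2, against 18 without either Th1 array and 20 and 19 without the Th17 arrays. Beyond those already given, Socs3, Il17ra, Il2rg, Tnfrsf25, Btla, Lef1, Dgka, Dgkz, Ptpn22, Nfkb2, Mdm2, Pdia3, Hsp90b1, Ctsw, Klrd1, Cd79b, Iglv1, Fcmr, Ighm, H2-DMa, H2-DMb2, Adgre1, Lyz1 and Cpa3 each lost the call without some single array. Without background correction 129 of the 180 lost the call, among them Asb2, Tg, Nts, Cd27, Ifngr1, Tnfrsf18, Samd9l and H2-K1, whereas 42 kept it under each alternative in which they were tested. Of these, 38 were tested in all 14 alternatives, among them Gata3, Irf4, Penk, Pros1, Il18r1, Hsd11b1 and Gpr18. The other 4, Akr1c18 and Il4 among them, were left out by the filter that asked for signal above background on all 6 arrays.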

How the data were processed

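Total RNA of the sorted cells was amplified to biotin-labelled cRNA and hybridised to Illumina mouse arrays, per the labels' protocols. Every value starts from the deposited table of intensities, which are linear, centre near 0 and fall below it on every array. For these, the authors' background and scaling steps are not given in the sources used here. A further 12 deposited columns have names that match no sample label and were not used, so no detection p-values were available.

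An intensity above the one-sided 5% point of noise, taken from the values below 0 on that array, counted as above background (thresholds 5.84 to 6.95), and 22460 of 45281 probes above it on at least 2 arrays were kept. Intensities were background-corrected by normexp with an offset of 50, quantile-normalized and put on the log2 scale with limma 3.58.1 in R 4.3.3. Probes were named through the platform annotation and RefSeq (28620 by gene identifier, 2637 by accession, 2128 by symbol, 2343 by synonym, 56 kept as given, 9497 with no gene). The brightest probe stood for a gene, leaving 12093 genes. The 3846 kept probes with no name gave 46 higher and 61 lower calls and are not described.

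Th9 was compared with Th1 and with Th17 in 1 linear model over the 6 arrays (median residual SD 0.10, 3 residual degrees of freedom and a prior worth 16.0), with Benjamini-Hochberg adjustment within each comparison. For a kind above background on 0 arrays, a change is written as a lower bound against the thresholds. Arrays were not paired, since nothing ties the repeats of different kinds to each other, and no batch is recorded. The linear model and call were also run on simulated data of independent normal noise with the fitted spreads. That setting held no array effects, background floor or normalization, so it does not test those.

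Named genes were the 15 of widest gap each way, up to 6 per function list each way, key genes, 3 on each side of a gap of 0 and marker genes that were apart, passing over provisional symbols. Genes named by gap, list or marker were drawn from called genes with non-overlapping arrays, so their lack of overlap is no result. The members, the 24 function lists, the 10 marker lists and the naming rule were chosen with earlier results of these data known. Alternatives changed the background correction, offset, scaling, filter, probe summary, variance model, fold threshold and grouping, and left out each array in turn.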

Additional observations from a re-analysis of the deposited data

How the results depend on the processing

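The counts over all genes moved in size. In the order of genes apart above, apart below, above the mean of the other kinds and below it (451, 303, 978 and 861), the counts were 263, 164, 649 and 566 with an offset of 16, 76, 46, 277 and 208 without background correction, and 62, 29, 116 and 66 with a log2 fold change of at least 1. With arrays scaled to their median, 102 genes were apart below, 416 lay below the mean of the other kinds (1008 above) and 600 had both Th9 arrays below all others (2048 above), against 1408. With Th1 and Th17 as a single group, 258 were higher and 149 lower than the other arrays. Leaving out each array in turn gave 289 to 391 apart above, 180 to 272 apart below, 591 to 1052 above the mean, 498 to 939 below it, 2063 to 2971 non-overlapping above and 1672 to 2621 below. Without Th9 replicate 1 the counts apart were 289 and 181, and without Th9 replicate 2 they were 305 and 180. The cause was not tested. By design the Th9 arrays enter both comparisons of the call, and with 1 Th9 array the lone array is assumed to vary like the other kinds. The non-overlap count then asks only 1 Th9 array, and not 2, to lie beyond the other 4. The balance of higher to lower members turned with median scaling for cytokine receptors, T cell receptor signalling, other transcription regulators and adhesion genes, as given above. Without background correction the list counts fell. Higher members were then 6 of 20 type 2 genes, 4 of 16 regulatory T cell genes and 3 of 55 AP-1, IRF and Egr genes. Lower members were 4 of 60 interferon response, 4 of 34 memory and 0 of 15 MHC class I genes. Of 180 named genes called, 42 kept the call under each alternative that tested them, 38 of these under all 14, while 22 of the 180 had no result with signal required on all 6 arrays. Of the 180, 57 lost it without some single array, 50 with an offset of 16 and 40 with median scaling. No paired analysis was possible because the labels carry no replicate numbers. Dim genes, with intensities near the thresholds, have differences that depend on the offset.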
